A study of Mus musculus with 12 samples.

Results

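Expression of 7 secreted or membrane-bound factors that act on blood cells was followed through the cell types of the fetal and newborn mouse liver: Kitl, Thpo, Epo, Csf1, Il7, Ptn and Angpt1. They were taken by gene symbol from single-cell RNA-seq matrices. All 7 were found at both stages, among 22519 genes shared by the matrices of the 2 stages. The libraries came from livers of Jag1+/+, Jag1Ndr/+ and Jag1Ndr/Ndr mice, offspring of Jag1Ndr/+ parents, taken late in gestation (the embryonic day E16.5) or on day 3 after birth (P3). Ndr (Nodder) is a missense allele of Jag1, a ligand of the Notch receptors. It is carried in the germline, so all cells of a Jag1Ndr/Ndr liver have it, and since it does not remove the transcript the counts of Jag1 do not check the labels.

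In the fetus the liver is the main blood-forming organ, and stem and progenitor cells depend on factors made by the cells around them. Around birth blood formation moves to the bone marrow. KIT ligand (Kitl) acts on KIT on stem cells, mast cells and erythroid progenitors. Thrombopoietin (Thpo) acts on stem cells and megakaryocytes. Erythropoietin (Epo) acts on EPOR on erythroid progenitors, and M-CSF (Csf1) on CSF1R on macrophages. Interleukin 7 (Il7) acts on IL7R on B and T lymphocyte progenitors. Pleiotrophin (Ptn) is a heparin-binding growth factor, and angiopoietin 1 (Angpt1) is the activating ligand of TEK (TIE2) on endothelial cells and some stem cells.

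At E16.5, 5 libraries were available: Jag1+/+ replicate 1, a library deposited under both Jag1+/+ and Jag1Ndr/+ and counted once (called shared here), then replicate 1 of Jag1Ndr/+, and finally both replicates of Jag1Ndr/Ndr. Per-library values at E16.5 are given in that order. At P3, 4 distinct libraries were left. Many barcodes of libraries A and B, deposited under a wild-type label, appear again under a homozygous one, and library B also shares all 15754 barcodes of a matrix labelled Jag1Ndr/+, so the genotype of both is unclear. Library C carries only a Jag1Ndr/Ndr label once the barcodes of library A are taken out, and library D only a Jag1Ndr/+ label. Among the 12 deposited matrices, 7 pairs shared 53.4% to 100% of their barcodes, and the other pairs at most 1.72%. The Jag1Ndr/Ndr pups at P3 were picked for jaundice. Their controls were genotyped afterwards.

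Barcodes passing a minimum of 1000 UMIs and a maximum of 15% mitochondrial UMIs numbered 15024 to 29034 per library, with a median of 2961 to 9256 UMIs. After doublet removal, 152771 cells of 184493 were kept, 88219 at E16.5 and 64552 at P3. Cells were clustered without the 7 genes and without the listed receptors and related factors, and clusters were called by their marker genes. Alb averaged 48081 UMIs per 1000000 UMIs (CPM) in hepatocyte-like cells at E16.5. Kdr averaged 528 CPM in endothelial-like, Col1a1 671 CPM in mesenchymal-like and C1qa 1040 CPM in macrophage-like cells. These genes are among the markers that named the clusters, so their levels describe the classes and do not check them. No cluster could be called cholangiocyte-like or mesothelial-like. Cells left without a class numbered 3481 at E16.5 and 8321 at P3. At P3 the cholangiocyte marker Krt19 averaged 233 CPM in mesenchymal-like cells. Spp1, of the same marker list, averaged 51.4 CPM there, from 0 to 122 CPM by library. The other markers of that list are not given here, and which cells of the class carried Krt19 was not tested. RNA of erythroid marker genes was present in every class at E16.5, with library medians of 17.6% to 46.1% of a cell's UMIs in endothelial-like and 24.1% to 44.8% in hepatocyte-like cells. Its part in the levels below was not tested, except where values without it are given.

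The 7 genes did not share a source. At E16.5 the highest level of Kitl was in endothelial-like cells, of Thpo and Il7 in hepatocyte-like cells, of Ptn in mesenchymal-like cells, of Csf1 in basophil/mast-like cells and of Angpt1 in stem/progenitor-like cells. For Csf1 and Angpt1 the highest classes were therefore blood cells, not cells of the liver parenchyma or stroma. Of the UMIs counted in kept cells at E16.5 there were 2579 for Angpt1, 2329 for Kitl, 2023 for Csf1, 750 for Ptn, 347 for Thpo, 56 for Il7 and 1 for Epo. At P3 there were 1734 for Angpt1, 840 for Csf1, 697 for Kitl, 334 for Ptn, 65 for Thpo, 22 for Il7 and 0 for Epo. Levels are CPM, the UMIs of a gene per 1000000 UMIs summed over the cells of a class in 1 library. Means are over libraries with their SD, n = 5 at E16.5 and n = 4 at P3.

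**Figure D1:**
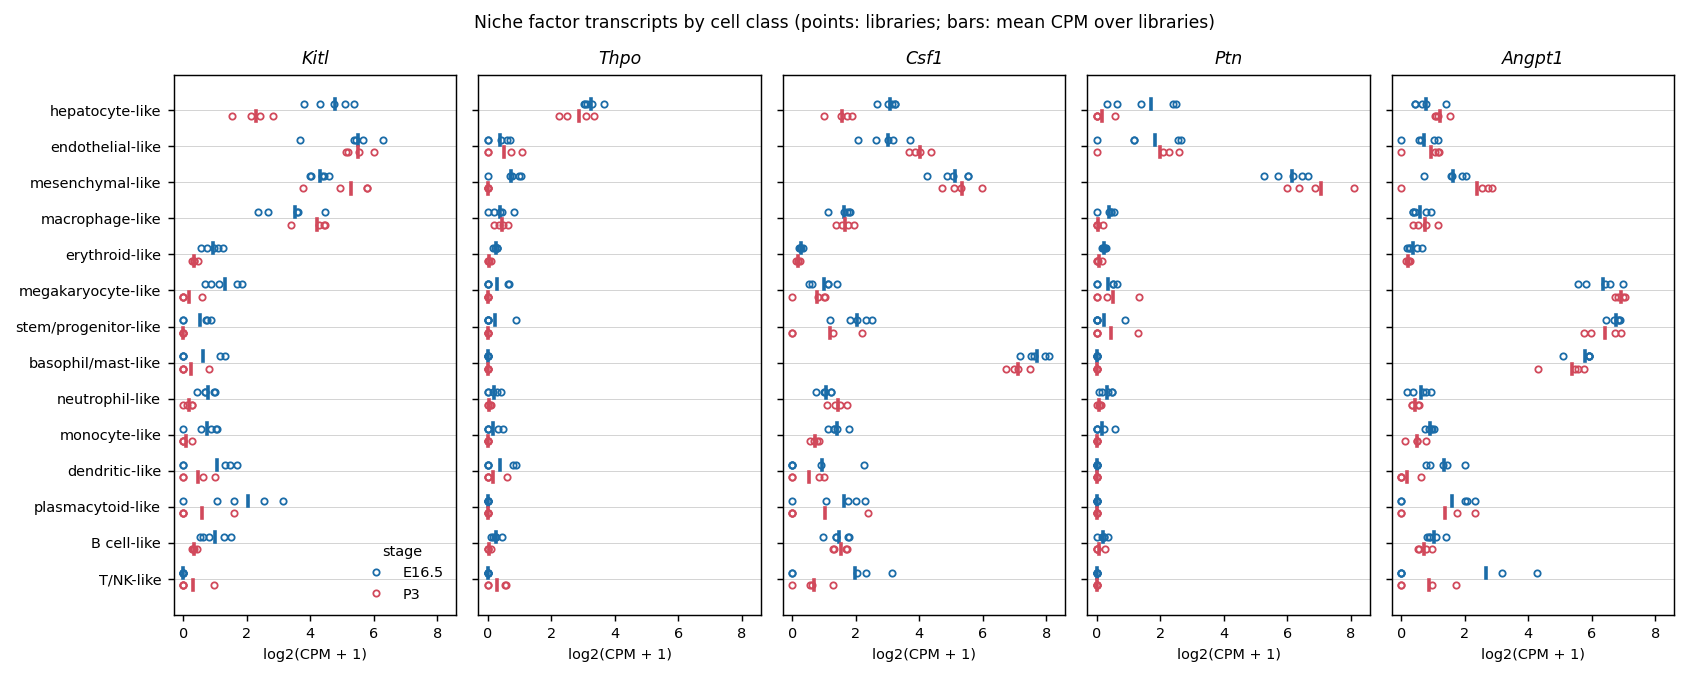
Level of 5 of the factors in each named cell class, as log2(CPM + 1). Each circle is 1 library (blue E16.5, red P3) and each bar the mean CPM over libraries. Thpo is highest in hepatocyte-like and Ptn in mesenchymal-like cells at both stages, Csf1 peaks in basophil/mast-like cells (means of 207 and 136 CPM), and Angpt1 in stem/progenitor-like, megakaryocyte-like and basophil/mast-like cells. Epo and Il7 are left out for their few UMIs.

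Kitl lies on chromosome 10 (100015630-100100416, plus strand, GRCm38, GENCODE M21). At E16.5 its level in endothelial-like cells was 42.3, 76.4, 40.1, 49.0 and 11.8 CPM in the order of libraries given above. Jag1Ndr/Ndr replicate 2 lay far below the other 4. The class mean was 43.9 ± 23.1 CPM (SD, n = 5), ahead of hepatocyte-like cells with 26.1 ± 10.8, mesenchymal-like cells with 18.6 ± 3.53 and macrophage-like cells with 10.5 ± 6.67. The library ranges of each neighbouring pair in this order overlapped. At P3 the endothelial level was 33.8, 45.8, 35.1 and 63.5 CPM in libraries A to D, with a mean of 44.5 ± 13.7 (SD, n = 4). There the mesenchymal-like mean was 37.6 ± 20.2, the macrophage-like mean 17.3 ± 5.28 and the hepatocyte-like mean 3.93 ± 1.76. Macrophage-like and hepatocyte-like cells did not overlap at P3, in the opposite order to E16.5.

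Because classes differ in size, the share of all Kitl UMIs from each class was also counted. At E16.5 hepatocyte-like cells held 28.7% of Kitl UMIs, endothelial-like cells 24.1%, macrophage-like cells 16.6% and erythroid-like cells 14.8%. The libraries differed widely, from 18.4% to 34.9% for hepatocyte-like, 5.77% to 39.1% for endothelial-like and 5.65% to 30.6% for macrophage-like cells. Endothelial-like cells held more Kitl UMIs than hepatocyte-like cells in 3 of the 5 libraries, and without Jag1Ndr/Ndr replicate 2 the pooled shares were 30.3% and 27.8%, in the opposite order. At P3 macrophage-like cells held 46.8%, endothelial-like cells 22.1%, mesenchymal-like cells 13.8% and hepatocyte-like cells 5.45%. After each cell was thinned to 2000 UMIs, a Kitl UMI was found in 7.29% of endothelial-like, 2.43% of hepatocyte-like, 2.37% of mesenchymal-like and 1.59% of macrophage-like cells at E16.5. The share in erythroid-like cells, used as the background of free RNA, was 0.25%. Unthinned, the shares were 23.2% of endothelial-like cells (median 7068 UMIs), 14.8% of hepatocyte-like cells (median 4565.5 UMIs) and 0.604% of erythroid-like cells (median 6619 UMIs). At P3 the thinned shares were 7.19% of endothelial-like, 7.74% of mesenchymal-like, 2.88% of macrophage-like and 0.683% of hepatocyte-like cells, against 0.0480% of erythroid-like cells. The number of cells too shallow to thin at P3 was 52 of 650 endothelial-like, 551 of 3778 macrophage-like and 339 of 1510 hepatocyte-like cells.

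Within the endothelial-like class Kitl differed between sub-clusters. Each sub-cluster is called by genes among the 10 that lead it within its class. At E16.5 the sub-cluster led by Rspo3, a Wnt-enhancing factor, had 95.2 CPM (Poisson 95% interval 74.4 to 120; 51 cells). The sub-cluster led by Pcdh17, which also had the sinusoidal markers Lyve1 and Clec4g, had 61.9 CPM (331 cells). The sub-cluster led by Gja5, an arterial connexin, had 47.5 CPM (82 cells). The 2 sub-clusters led by erythroid genes had 13.3 and 12.6 CPM. At P3 the sub-cluster led by Eln and Col18a1 had 149 CPM (79.3 to 255; 19 cells), the Rspo3-led one 99.6 CPM (37 cells), the Ccl21a-led one 75.3 CPM (116 cells) and the Adam23-led one 73.0 CPM (91 cells). These intervals cover counting error only.

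In Jag1Ndr/Ndr replicate 2 Kitl was low in the Pcdh17-led cells and lower than in the other libraries in the remaining endothelial-like cells too. In the Pcdh17-led cells Kitl was 53.6 CPM (30 UMIs in 40 cells), 103 CPM (140 UMIs in 131 cells), 63.9 CPM (35 UMIs in 44 cells), 58.3 CPM (42 UMIs in 51 cells) and 2.38 CPM (2 UMIs in 65 cells; interval 0.289 to 8.61). The other 4 libraries lay between 53.6 and 103 CPM, far above the interval of replicate 2. In the endothelial-like cells outside this sub-cluster Kitl was 37.5, 56.9, 31.9, 45.0 and 15.6 CPM, and the interval of replicate 2 (10.7 to 22.1) again lay below the other 4 values. In the Pcdh17-led cells, which clustering grouped by such genes, the summed level of 7 endothelial markers (Kdr, Lyve1, Egfl7, Oit3, Ramp2, Gpr182 and Clec4g) was 4559 to 5794 CPM over the 5 libraries and 5276 CPM in replicate 2. In the Rspo3-led cells of that library Kitl was 61.8 CPM (8 UMIs in 6 cells), next to 67.8 to 126 CPM in the other 4. In the Gja5-led cells it was 26.5 CPM, within the 18.2 to 89.7 CPM of the others. Jag1Ndr/Ndr replicate 1 showed no such gap, and the 2 homozygous libraries therefore differed from each other in the Pcdh17-led cells. The sub-cluster was singled out after its values were seen.

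**Figure D2:**
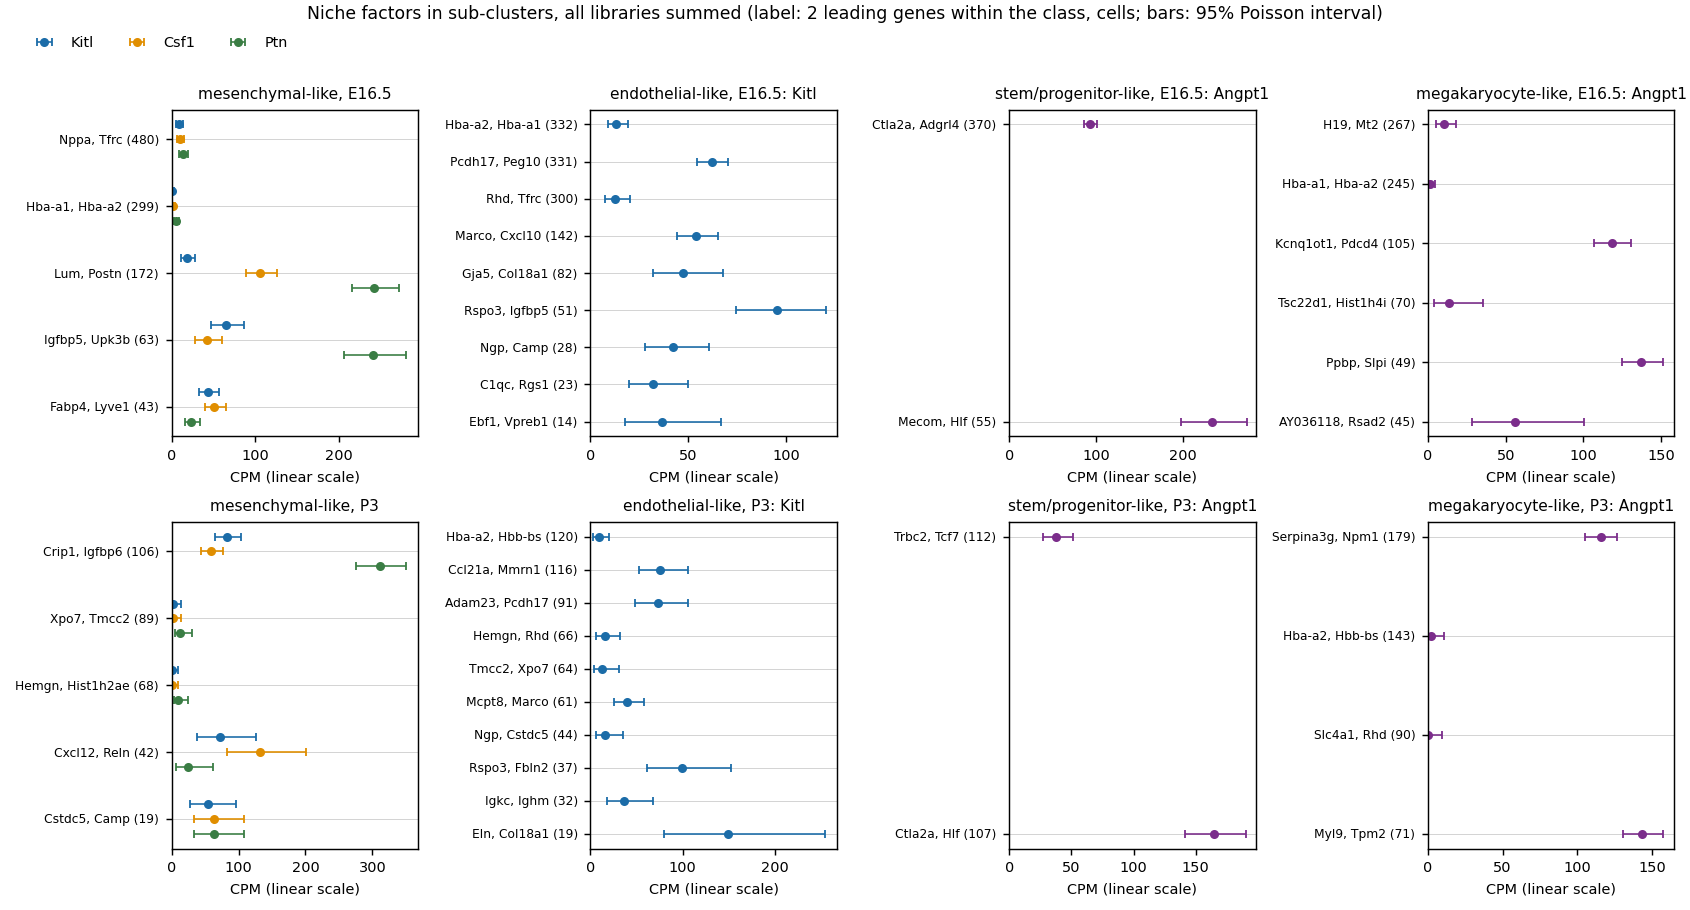
Level in CPM, over all libraries of a stage, in the sub-clusters of 4 classes, each named by 2 leading genes with its number of cells. Points are Kitl, Csf1 and Ptn in mesenchymal-like, Kitl in endothelial-like and Angpt1 in stem/progenitor-like and megakaryocyte-like cells, and bars are Poisson 95% intervals (counting error only). Kitl spans 12.6 to 95.2 CPM among endothelial-like sub-clusters at E16.5, and Angpt1 is 93.3 and 234 CPM in the stem/progenitor-like ones.

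The Kitl level of macrophage-like cells was set beside endothelial RNA in the same cells. In the E16.5 macrophage-like cluster with the deeper cells, Kitl was 19.6, 17.0, 8.11, 8.22 and 37.0 CPM by library. Jag1Ndr/Ndr replicate 2, lowest among endothelial-like cells, was here the highest. Over all libraries the cluster had 331 Kitl UMIs in 1350 cells, 19.5 CPM (17.5 to 21.7). Its Kitl level was 43.4% of the endothelial-like level, while the 7 endothelial markers together were at 0.937% of theirs (30.2 CPM). These 7 were chosen after their levels were seen: 3 others, Cdh5, Stab2 and Pecam1, were left out because macrophage-like cells carried them at 335 CPM in sum. Cells without any UMI of the 7 had 19.7 CPM (17.3 to 22.3; 246 UMIs in 1092 cells), and cells with one had 19.1 CPM. In the whole class the same split gave 10.5 and 14.9 CPM. With all 10 endothelial markers, the 3 carried by macrophage-like cells included, the class had 3.37 CPM of Kitl in cells without such a UMI (median 4145 UMIs per cell) and 16.4 CPM in cells with one (median 7331). The shallower macrophage-like cluster at E16.5 had 3.24 CPM. At P3 the largest macrophage-like cluster had 22.3 CPM, with 15.8, 26.3, 24.4 and 23.8 CPM in libraries A to D. It had 21.3 CPM (18.6 to 24.4) in cells without the 7 markers and 25.4 CPM (20.0 to 31.8) in cells with one. A deeper P3 cluster, with 45.6% of its barcodes marked as doublets and removed, had 3.66 CPM without them (7 UMIs in 264 cells) and 0 CPM with one (39 cells). A shallower P3 cluster had 6.38 CPM without and 4.37 CPM with them. With all 10 markers the P3 class had 8.0 CPM without and 19.7 CPM with them. The part of endothelial RNA in the macrophage-like level was not tested further.

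Hepatocyte-like cells fell into shallow and deep clusters. In the deep cluster at E16.5, Kitl was 26.8, 50.4, 39.5, 20.0 and 44.1 CPM by library, and 38.4 CPM (35.4 to 41.5) in all, from 619 UMIs in 666 cells. Both genotype groups span low and high values. Kitl there was 85.4% of its endothelial-like level, with the 7 endothelial markers at 7.08% of theirs. Cells without a UMI of the 7 had 28.4 CPM (24.4 to 32.8) and cells with one had 45.2 CPM (41.0 to 49.6). Only 77 of the 666 cells had no UMI of any endothelial or mesenchymal marker, and their Kitl was 18.4 CPM (11.1 to 28.7), against 39.8 CPM in the rest. The cells without such UMIs were also shallower, with a median of 10980 UMIs against 24154. Over all hepatocyte-like cells at E16.5 Kitl was 8.29 CPM without a mesenchymal marker UMI and 38.1 CPM with one. At P3 the deep hepatocyte-like cluster had 9.55 CPM (6.24 to 14).

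In mesenchymal-like cells at E16.5 the 7 endothelial markers were at 18.2% of their endothelial level, and Kitl was 10.5 CPM in cells without a UMI of them and 32.6 CPM in cells with one. At P3 the markers were at 1.94%, and Kitl was 45.9 CPM without them and 48.8 CPM with them. The E16.5 sub-clusters with the most Kitl were led by Igfbp5 and Upk3b, the latter a mesothelial marker (64.9 CPM, 63 cells), and by Fabp4 and Lyve1 (43.5 CPM, 43 cells). At P3 they were led by Crip1, Igfbp6, Msln and Upk3b (82.8 CPM, 106 cells) and by Cxcl12, Reln and Hgf, genes of stellate cells (72.2 CPM, 42 cells). Outside the sub-clusters led by Upk3b, mesenchymal-like Kitl was 19.1, 11.4, 12.8, 10.4 and 14.8 CPM at E16.5 and 19.9, 27.8, 19.3 and 7.51 CPM at P3. How far other cells' RNA made up the mesenchymal level at E16.5 was not tested further.

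Between the stages Kitl fell in hepatocyte-like cells, where it was 19.0, 40.2, 25.6, 12.9 and 32.9 CPM at E16.5 and 6.09, 4.32, 1.88 and 3.42 CPM at P3. Every E16.5 library lay above every P3 library. The log2 fold change from E16.5 to P3 was -2.33 (SE 0.383, adjusted p = 0.000376, edgeR quasi-likelihood test with Benjamini-Hochberg adjustment over all pairs of class and gene). Of the genes tested in hepatocyte-like cells, 40.8% were called between the stages. With the deep clusters alone the change was -1.79 (edgeR adjusted p = 0.00321), and with cells under 5% erythroid marker UMIs it was -2.35 (edgeR adjusted p = 0.000149). The summed mesenchymal markers of the class fell alongside, from 271 to 47.6 CPM over all libraries. In cells without any endothelial or mesenchymal marker UMI, Kitl was 7.03 CPM (5.2 to 9.29) at E16.5 and 3.62 CPM (2.11 to 5.80) at P3, against 27.4 and 4.81 CPM in all cells. In the deep clusters such cells had 18.4 and 12.4 CPM, with overlapping intervals. The part of mesenchymal RNA in the change was not tested. The hepatocyte-like cells of library C had 47.8% erythroid marker UMIs, and those of A, B and D 0.687% to 1.11%.

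In mesenchymal-like cells Kitl was 19.5, 20.3, 15.2, 14.9 and 23.2 CPM at E16.5 and 53.8, 54.2, 29.7 and 12.6 CPM at P3. Libraries A, B and C were above the fetal range and D below it. The change was 0.74 (SE 0.265, edgeR adjusted p = 0.0352, with 27.3% of genes in this class called), and it missed the threshold in 8 of the alternative settings tried, among them DESeq2 (adjusted p = 0.0767) and without any 1 of Jag1+/+ replicate 1, the shared library, Jag1Ndr/Ndr replicate 1, library A or library B (edgeR adjusted p 0.0563 to 0.194). The make-up of the class differed between the stages: the Upk3b-led cells, high in Kitl, were 63 of 1057 cells at E16.5 and 106 of 324 at P3, and outside them Kitl was 14 CPM (11.4 to 17.1) and 20.5 CPM (13.2 to 30.6) over all libraries. Outside the Upk3b-led cells the mesenchymal markers summed to 2430 CPM at E16.5 and 4396 CPM at P3. Most E16.5 cells of the class lay in sub-clusters led by erythroid genes, described below with Ptn. The part of this make-up in the class change was not tested. Erythroid marker UMIs differed in mesenchymal-like cells, 31.6% to 52.7% at E16.5 and 0.871%, 22.1%, 25.7% and 38.7% in libraries A to D. With the erythroid marker genes left out of the total, mesenchymal-like Kitl at E16.5 was 31.7 CPM instead of 18.6. In endothelial-like cells Kitl did not differ beyond the spread (log2 change -0.20, edgeR adjusted p = 0.695), nor in macrophage-like cells (0.24, edgeR adjusted p = 0.606). Kitl also fell in erythroid-like cells, from 0.919 ± 0.351 to 0.265 ± 0.0712 CPM (log2 change -2.13, edgeR adjusted p = 0.000177), and in neutrophil-like cells, from 0.698 ± 0.269 to 0.121 ± 0.102 CPM (-2.60, edgeR adjusted p = 0.00182, with 49.1% of genes in this class called). Erythroid-like cells are the class that served above as the background of free RNA.

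Thpo, on chromosome 16 (20724454-20734511, minus strand), was a hepatocyte gene. In hepatocyte-like cells it was 8.77, 11.5, 7.74, 7.28 and 7.12 CPM at E16.5 and 4.63, 7.56, 3.75 and 9.13 CPM at P3. The libraries of the 2 stages overlapped. The means were 8.48 ± 1.81 (SD, n = 5) and 6.27 ± 2.51 (SD, n = 4), and the next class averaged at most 0.665 CPM at E16.5 and 0.436 CPM at P3, with no overlap with hepatocyte-like cells. The stage change was -0.35 (edgeR adjusted p = 0.301), and 0.09 in the deep clusters alone. Hepatocyte-like cells held 59.9% of Thpo UMIs at E16.5 and 69.2% at P3. Thinned to 2000 UMIs, 1.28% of them had a Thpo UMI at E16.5, against 0.0532% of erythroid-like cells. The annotated gene overlaps Chrd on the opposite strand, and whether reads were counted by strand is not stated.

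Some hepatocyte-like cells had UMIs of both Thpo and Kitl, but most cells with either lacked the other. Among 2428 hepatocyte-like cells at E16.5, 359 had a Kitl UMI, 180 a Thpo UMI and 84 both. Of the same 2428 cells 120 had a Csf1 UMI, 69 of them with Kitl and 26 with Thpo. Deeper cells are more likely to show any pair of genes. The parts of depth and of other cells' RNA in these counts were not tested.

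Epo, on chromosome 5 (137483020-137533242, minus strand), was barely detected. In all, 1 UMI was counted at E16.5, in a hepatocyte-like cell of the deep cluster in Jag1Ndr/Ndr replicate 1 (0.235 CPM, interval 0.00594 to 1.31). That cell also had a Kitl, a Thpo and an Il7 UMI. In the other 4 E16.5 libraries hepatocyte-like cells had 0 Epo UMIs, which allows a level of up to 0.534 to 0.849 CPM by the 3-count limit. At P3 the count was 0 in every class, and in hepatocyte-like cells this allows up to 0.730, 1.62, 2.82 and 3.42 CPM in libraries A to D. The fetal liver is the known site of Epo production before the kidney takes over, and at this depth no difference in Epo between stages or genotypes was detectable. The annotated span of Epo overlaps other genes, among them Pop7 and Gnb2 on the same strand, and how reads shared with them were counted is not given in the sources used here.

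Genes through which cells sense oxygen and control Epo were detected where Epo itself was not. In this list of 11, Nr2f2, an orphan receptor, averaged 318 CPM in endothelial-like cells at E16.5, and Epas1 (HIF-2 alpha) 85.9 CPM in the same class. Of 110 pairs of class and gene tested between the stages, 16 rose and 44 fell, 54.5% against 40.8% of all pairs, with a median log2 change of -0.42. The median over all genes of a class lay between -0.0101 and 0.0322. Hif3a, which dampens the hypoxia response, fell in 12 of 12 classes (hepatocyte-like -3.08), and Egln1, an oxygen-sensing prolyl hydroxylase, in 9 (hepatocyte-like -1.31). Arnt, the partner subunit of the HIF proteins, fell in 7 classes, Nr2f2 in 6 and Egln3 in 5. Egln2 rose in 14 of 14 classes, and Epas1 rose in 2 and fell in 1. Hif1a and Gata4 fell in 1 class each and Hnf4a in 2, and Vhl passed in none. These calls are from the edgeR test with Benjamini-Hochberg adjustment. Calls of the same gene in several classes are not independent, since the classes come from the same libraries.

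Csf1, on chromosome 3 (107741048-107760469, minus strand), was highest in basophil/mast-like cells, the class marked by Cpa3 (1363 CPM). The level was 195, 182, 144, 248 and 268 CPM at E16.5 and 106, 126, 136 and 177 CPM at P3. Both Jag1Ndr/Ndr libraries lay above the other 3 at E16.5, a difference that was not called. Only library D at P3 reached the fetal range. The means were 207 ± 50.6 (SD, n = 5) and 136 ± 30.0 (SD, n = 4), and the change of -0.76 (SE 0.189) passed the edgeR test (adjusted p = 0.00456, with 33.2% of genes in this class called). These cells numbered only 37 to 132 per library at E16.5, yet they held 48.8% of all Csf1 UMIs at E16.5 and 39.3% at P3. Thinned to 2000 UMIs, 33.5% had a Csf1 UMI at E16.5 and 24.6% at P3, against 0.0477% and 0.0280% of erythroid-like cells. The erythroid marker share of basophil/mast-like cells was among the lowest at E16.5, 6.78% to 13.8%.

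Csf1 was called between the stages in 3 classes and in both directions, so the stretch just upstream of its start is shown. It is 250 bases from RefSeq (GRCm38.p6, chr3:107760470-107760719, minus strand), written 5′ to 3′ in lower case, with no motif in capitals because none of the 5 searched was found.
Csf1: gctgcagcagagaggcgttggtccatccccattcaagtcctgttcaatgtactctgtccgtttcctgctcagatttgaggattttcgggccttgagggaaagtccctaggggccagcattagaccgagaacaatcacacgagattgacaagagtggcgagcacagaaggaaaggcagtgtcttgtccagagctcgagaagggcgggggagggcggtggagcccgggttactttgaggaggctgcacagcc
The motifs searched on both strands were GATAAG, the letters read by erythroid transcription factors of the GATA family, in 6.55% of 32851 windows of the same length, and GTTAAT, part of a hepatocyte HNF1 site, in 6.43%. TATAAA was in 12.4%, the hypoxia response core ACGTG in 16.6% and the promoter element CCAAT in 33.8%. None of the 5 contains another. Among the other genes with a window, Kitl had TATAAA 25 bases before its RefSeq start, and Ptn CCAAT 81 bases before. Of the Thpo windows 1 had CCAAT on the opposite strand 42 bases before. These starts differ from the GENCODE spans given here. The windows of Kitl (100015571-100015820) and Ptn (36810180-36810429) overlap the spans of these genes. The Thpo window with the match (20730599-20730848) lies inside the Thpo span. Epo had no match. A match or its lack describes only these letters in this window.

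Basophil/mast-like cells were not uniform in Csf1. At E16.5 the sub-cluster led by Ccl6 and Ccr2 had 308 CPM (144 cells), the Ramp1-led one 250 CPM (71 cells), and the one led by the mast cell proteases Cpa3 and Cma1 87.5 CPM (95 cells). At P3 the Ccl6- and Ccr2-led cells again had the most, 337 CPM (56 cells), with 158 CPM in Mcpt8-led (73 cells) and 69.7 CPM in Prg2-led cells (122 cells). Mcpt8 encodes a basophil protease and Prg2 an eosinophil and mast cell granule protein. The mix of these cells differed between the stages, and the Ccl6- and Ccr2-led cells, whose Csf1 level did not fall, went from 144 of 310 to 56 of 284 cells. The part of this in the class change was not tested. At E16.5, 240 of 310 cells had a Csf1 UMI, 124 an Angpt1 UMI and 95 both.

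Mesenchymal-like cells came next in Csf1, with 28.3, 45.5, 17.8, 45.5 and 32.0 CPM at E16.5 and 38.4, 61.7, 33.0 and 25.2 CPM at P3. The stages overlapped. The fitted log2 change was -0.13 and did not pass the edgeR test (adjusted p = 0.744). The class means, 33.8 ± 11.9 and 39.6 ± 15.7, ordered the stages the other way, so no direction is given, and the library ranges did not overlap those of the classes above and below. Most E16.5 cells of the class lay in sub-clusters led by erythroid genes, described below with Ptn. With the erythroid marker genes left out of the total the E16.5 mean was 57.1 CPM. At P3 it was 72.9 CPM in cells under 5% erythroid marker UMIs. The sub-cluster led by Lum, Postn and Reln had 106 CPM (88.5 to 126; 172 cells) at E16.5, and the Cxcl12-, Reln- and Hgf-led one had 132 CPM (42 cells) at P3. In neutrophil-like cells most clusters were low, but the P3 cluster led by the inflammatory genes Il1b and Cxcl2 had 55.8 CPM (42.0 to 72.6; 276 cells), and the class held 17.5% of Csf1 UMIs at P3 and 5.34% at E16.5.

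Csf1 fell in hepatocyte-like cells and rose in endothelial-like cells. The summed mesenchymal markers fell in the first (271 to 47.6 CPM) and rose in the second (52.2 to 453 CPM). These markers include Hgf, which like Csf1 was highest in basophil/mast-like cells (219 CPM at E16.5 and 147 CPM at P3). The sum and the splits by it below are therefore not particular to mesenchymal RNA. In hepatocyte-like cells it was 8.49, 7.85, 5.40, 7.04 and 8.36 CPM at E16.5 and 0.974, 2.70, 1.88 and 2.28 CPM at P3, with no overlap. The change was -1.92 (SE 0.336, edgeR adjusted p = 0.000595), and -1.46 (edgeR adjusted p = 0.0119) in the deep clusters alone. In hepatocyte-like cells without any endothelial or mesenchymal marker UMI it was 1.43 CPM (0.688 to 2.64; 10 UMIs) at E16.5 and 1.28 CPM (0.469 to 2.78; 6 UMIs) at P3, and in cells with one 9.73 and 2.18 CPM. In the deep clusters the cells without such UMIs had 4.84 and 4.52 CPM. The intervals of the cells without these markers overlapped between the stages, on few UMIs. In endothelial-like cells it was 3.17, 8.07, 5.19, 7.12 and 12.1 CPM at E16.5 and 11.7, 19.8, 15.4 and 13.5 CPM at P3. Only Jag1Ndr/Ndr replicate 2 reached the P3 range. The change was 0.85 (SE 0.327, edgeR adjusted p = 0.0490, with 33.4% of genes in this class called), and it missed the threshold in 12 of the alternative settings, among them DESeq2 (adjusted p = 0.0532) and without any 1 of the libraries except Jag1Ndr/Ndr replicate 2 (edgeR adjusted p 0.0620 to 0.145). The median erythroid marker share of endothelial-like cells was 17.6% to 46.1% by library at E16.5 and 0.650% to 1.83% at P3, and with the erythroid marker genes left out of the total the change was 0.86 (edgeR adjusted p = 0.0483). Endothelial-like cells without any mesenchymal marker UMI had 6.42 CPM of Csf1 (4.78 to 8.45) at E16.5 and 7.16 CPM (4.01 to 11.8) at P3, and those with one 9.64 and 23.7 CPM. Cells without a macrophage marker UMI had 6.64 and 7.27 CPM. The intervals of the cells without these markers overlapped between the stages. The P3 sub-cluster with the most Csf1 (44.4 CPM, 61 cells) was led by Mcpt8 and Marco, genes of basophils and macrophages. The part of other cells' RNA in the hepatocyte and endothelial changes was not tested.

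Il7, on chromosome 3 (7569994-7613760, minus strand), was scarce. Its highest level at E16.5 was in hepatocyte-like cells. At P3 the UMIs were too few to order the classes, with 2 in the smaller endothelial-like class. In hepatocyte-like cells the levels were 0.283, 0.548, 0.360, 0.939 and 1.25 CPM at E16.5 and 1.22, 1.08, 0.938 and 0 CPM at P3. These rest on 17 and 8 UMIs, and the libraries of the 2 stages overlapped. The means were 0.675 ± 0.407 (SD, n = 5) and 0.809 ± 0.551 (SD, n = 4). Erythroid-like cells held 19 of the 56 Il7 UMIs at E16.5, but at 0.0541 CPM, since they were the largest class. Il7 did not pass the filter on low counts in any fit, and no difference was detectable at this depth. It has an antisense gene, Gm16685, in the annotation.

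Ptn, on chromosome 6 (36714929-36810220, minus strand), was highest in mesenchymal-like cells. In mesenchymal-like cells it was 51.0, 99.8, 71.2, 37.3 and 87.2 CPM at E16.5 and 115, 271, 62.7 and 81.8 CPM at P3. Library B stood above all others, and the stages overlapped. The means were 69.3 ± 25.5 (SD, n = 5) and 133 ± 94.7 (SD, n = 4), and the next class, endothelial-like, averaged 2.53 and 3.01 CPM with no overlap. The change of 0.54 did not pass the edgeR test (adjusted p = 0.214), and without library B it was -0.07. With the erythroid marker genes left out of the total the E16.5 mean was 117 CPM, and at P3 it was 238 CPM in cells under 5% erythroid marker UMIs. Mesenchymal-like cells held 71.1% of Ptn UMIs at E16.5 and 88.9% at P3. A Ptn UMI was found in 6.05% of them after thinning at E16.5 and in 9.76% at P3, against 0.0422% of erythroid-like cells at E16.5.

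Within that class Ptn followed particular cells. At E16.5 the sub-cluster led by Lum, Postn and Reln had 242 CPM (215 to 271) and the Igfbp5- and Upk3b-led one 241 CPM, while the Fabp4- and Lyve1-led one had 23.6 CPM. The 2 large sub-clusters led by erythroid genes (480 and 299 cells) had 13.5 and 4.58 CPM. At P3 the Crip1-, Igfbp6-, Msln- and Upk3b-led sub-cluster had 312 CPM (276 to 351), with 207, 664, 167 and 156 CPM in libraries A to D, so library B was again the highest. The Cxcl12-, Reln- and Hgf-led sub-cluster, the highest for Csf1, had 24.1 CPM of Ptn. Csf1 and Ptn were therefore highest in different sub-clusters of the class at P3. Msln and Upk3b are mesothelial markers, and the 6 mesothelial markers summed to 2833 CPM in the sub-cluster highest for Ptn and 215 CPM in the rest of the class. These cells held 271 of the Ptn UMIs of the class at P3, and the rest of it 26. Outside the Upk3b-led sub-clusters Ptn was 44.9, 48.9, 47.2, 16.8 and 88.5 CPM at E16.5 and 17.9, 15.4, 14.5 and 67.6 CPM at P3. At E16.5, 139 mesenchymal-like cells had Csf1, 131 had Ptn and 43 had both. Endothelial-like cells led by the arterial gene Gja5 had 44.3 CPM of Ptn (29.4 to 64.0) at E16.5, and the other endothelial-like sub-clusters at most 1.34 CPM.

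Angpt1, on chromosome 15 (42424723-42676977, minus strand), had its highest levels in blood-forming cells. In stem/progenitor-like cells, marked by Hlf (173 CPM), it was 115, 113, 86.4, 117 and 102 CPM at E16.5 and 106, 120, 61.6 and 53.0 CPM at P3. Libraries C and D were below the fetal range, A and B within or just above it. In megakaryocyte-like cells it was 83.9, 125, 55.0, 46.4 and 94.5 CPM at E16.5 and 105, 111, 126 and 132 CPM at P3, and the ranges overlapped. In basophil/mast-like cells it was 58.6, 58.9, 59.4, 59.8 and 33.1 CPM at E16.5 and 52.8, 46.4, 43.0 and 19.0 CPM at P3. The first 4 E16.5 libraries there lay between 58.6 and 59.8 CPM, and Jag1Ndr/Ndr replicate 2 was low.

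The means of Angpt1 were 107 ± 12.8 (SD, n = 5) in stem/progenitor-like, 80.9 ± 31.6 in megakaryocyte-like and 54.0 ± 11.7 in basophil/mast-like cells at E16.5. At P3 they were 85.0 ± 32.7 (SD, n = 4), 119 ± 12.7 and 40.3 ± 14.8. None of the changes passed the edgeR test: -0.40 in stem/progenitor-like cells (adjusted p = 0.0955), 0.36 in megakaryocyte-like cells (adjusted p = 0.101) and -0.44 in basophil/mast-like cells (adjusted p = 0.155). Without library B the first of these was -0.57 and passed (edgeR adjusted p = 0.0382). At P3 112 of the 219 stem/progenitor-like cells were in a sub-cluster led by T cell genes and low in Angpt1, described below, and the part of this in the change was not tested. Mesenchymal-like cells averaged 2.1 and 4.18 CPM. Angpt1 fell in erythroid-like cells (-1.12, edgeR adjusted p = 0.0197), from 0.301 ± 0.180 to 0.166 ± 0.0412 CPM, and 46.9% of genes in that class were called. Thinned to 2000 UMIs, an Angpt1 UMI was found in 17.4% of stem/progenitor-like, 7.10% of basophil/mast-like and 6.79% of megakaryocyte-like cells at E16.5, against 0.0716% of erythroid-like cells. The antisense gene Gm17473 overlaps Angpt1 in the annotation.

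Within these classes Angpt1 again differed between sub-clusters. Stem/progenitor-like cells led by Mecom and Hlf, genes of long-term stem cells, had 234 CPM of Angpt1 (198 to 274; 55 cells) at E16.5, and the larger sub-cluster led by Ctla2a and Adgrl4 93.3 CPM (86.0 to 101; 370 cells). At P3 the Ctla2a- and Hlf-led cells had 165 CPM (107 cells) and the cells led by the T cell genes Trbc2 and Tcf7 37.7 CPM (112 cells). Stem/progenitor-like cells without a megakaryocyte marker UMI still had 93.3 CPM at E16.5, and those with one had 125 CPM. Among megakaryocyte-like cells at E16.5, the sub-cluster led by Ppbp, a platelet chemokine, had 137 CPM (49 cells) and the Kcnq1ot1-led one 118 CPM (105 cells), while a globin-led sub-cluster in which 73.5% of UMIs were erythroid had 1.53 CPM. At P3 the Myl9- and Tpm2-led cells had 143 CPM (71 cells) and the Serpina3g-led cells 116 CPM (179 cells).

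**Figure D3:**
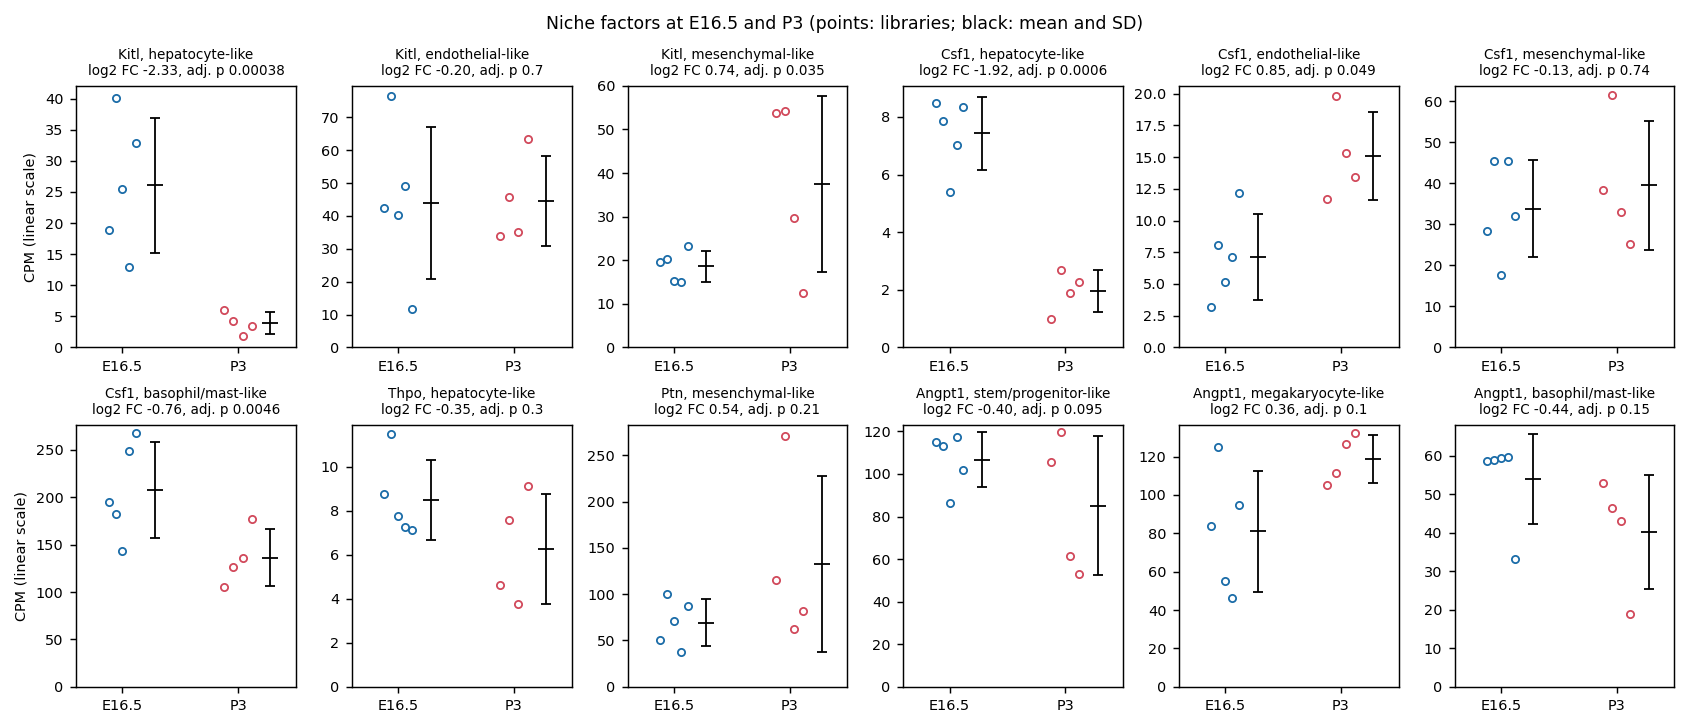
CPM of 12 pairs of factor and class in each library at E16.5 (blue) and P3 (red), with the mean and SD in black. The log2 change and edgeR adjusted p stand above each panel. Kitl and Csf1 in hepatocyte-like cells separate completely between the stages, while Thpo in the same cells (means 8.48 and 6.27 CPM) and Kitl in endothelial-like cells (43.9 and 44.5 CPM) overlap.

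Of the 20 pairs of factor and class that passed the filter on low counts, 8 were called between the stages by edgeR, 2 higher and 6 lower at P3, beside 40.8% of all 126694 pairs (20.3% higher, 20.6% lower). The count for the factors is near the background. The filter keeps pairs through the stage where they are high, so these 20 are not all pairs. The stage groups also differ in digestion, with TrypLE used at E16.5 and not at P3, and in the version of the counting software, and these cannot be told apart from age.

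The genotype comparison at E16.5 set the 2 Jag1Ndr/Ndr libraries against the other 3. None of the 27 pairs of factor and class tested was called (all edgeR adjusted p = 1.00), in a comparison where 2 of 132215 pairs were called (0.00151%). DESeq2 also called 0 of the 27. With 2 against 3 libraries, the lack of a call does not show a lack of difference. At an unadjusted p under 0.05, 1 of the 27 passed by either tool, Csf1 in basophil/mast-like cells, beside 1.96% of all pairs in edgeR. Nothing labels these samples as separate litters, and p-values measure the spread between libraries.

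Csf1 in basophil/mast-like cells was 258 ± 14 CPM (SD, n = 2) in Jag1Ndr/Ndr against 173 ± 26.6 CPM (SD, n = 3) in the others, with no overlap. Thpo and Il7 in hepatocyte-like cells, Csf1 in monocyte-like cells and Kitl in stem/progenitor-like cells did not overlap either. How often all pairs of class and gene show no overlap between 2 and 3 libraries was not counted. The lack of overlap therefore cannot be called particular to any pair. Csf1 also differed between the sub-clusters of basophil/mast-like cells, and the part of their mix in this difference was not tested. The log2 difference was 0.56 (SE 0.205), with an unadjusted p of 0.0152 and an edgeR adjusted p of 1.00. Kitl in endothelial-like cells differed by -0.83 (SE 0.422, edgeR adjusted p = 1.00), which rested on Jag1Ndr/Ndr replicate 2. Without replicate 1 the difference was -2.19 and passed the threshold (edgeR adjusted p = 0.0357), and without replicate 2 it was -0.12. Either fit leaves 1 Jag1Ndr/Ndr library, which is assumed to vary like the other 3, so that the spread comes from those 3 alone. Thpo in hepatocyte-like cells was 7.12 and 7.28 CPM in Jag1Ndr/Ndr and 7.74 to 11.5 CPM in the others, a log2 difference of -0.32 (SE 0.245) that did not pass. Kitl differed by 0.61 (SE 0.486) in macrophage-like, -0.23 (SE 0.384) in hepatocyte-like and 0.14 in mesenchymal-like cells. Csf1 differed by 0.76 (SE 0.412) in endothelial-like and 0.51 (SE 0.279) in mesenchymal-like cells. Ptn differed by -0.16 in mesenchymal-like cells. Angpt1 differed by 0.10 in stem/progenitor-like, -0.03 in megakaryocyte-like and -0.32 in basophil/mast-like cells. None of these passed the edgeR test.

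**Figure D4:**
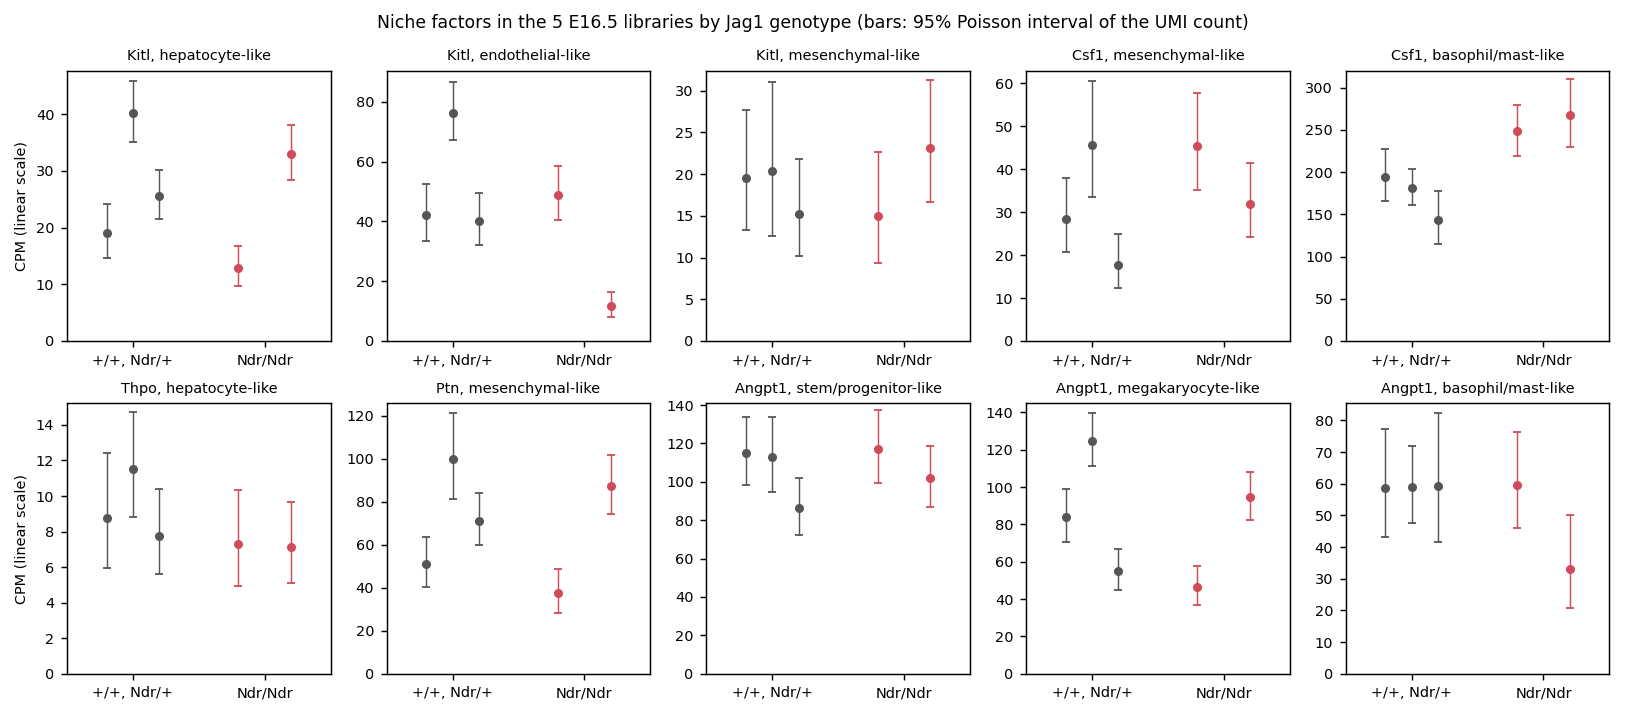
CPM of 10 pairs of factor and class in each E16.5 library, with Poisson 95% intervals of the UMI count. Grey points are Jag1+/+ replicate 1, the library deposited under 2 genotypes and Jag1Ndr/+ replicate 1, from left to right, and red points the 2 Jag1Ndr/Ndr libraries. The red points are above the grey ones for Csf1 in basophil/mast-like cells, a difference that was not called. For Kitl in endothelial-like cells 1 red point (11.8 CPM) lies far below all the rest.

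At P3 only library C, labelled Jag1Ndr/Ndr, and library D, labelled Jag1Ndr/+, could be set side by side, with no replicates and no test. Kitl in endothelial-like cells was 35.1 CPM in C and 63.5 CPM in D, a ratio of 0.553 (0.329 to 0.927, counting error only). This was the only one of 11 ratios whose interval left out 1. The ratio was 0.766 (0.540 to 1.09) for Csf1 in basophil/mast-like, 0.957 (0.757 to 1.21) for Angpt1 in megakaryocyte-like and 0.899 (0.613 to 1.32) for Kitl in macrophage-like cells. For Ptn in mesenchymal-like cells it was 0.766 (0.359 to 1.69), and for Thpo in hepatocyte-like cells 0.411 (0.0906 to 1.53).

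Receptors of these factors were found on the blood and vessel cells of the same livers. Kit averaged 158 ± 38.6 CPM (SD, n = 5) in stem/progenitor-like cells at E16.5 and 98.0 ± 41.4 (SD, n = 4) at P3. Csf1r in macrophage-like cells was 413 ± 41.3 and 1503 ± 117 CPM, and Il7r in B-like cells 256 ± 58.7 and 465 ± 103 CPM. Epor averaged 56.0 ± 26.6 and 26.4 ± 6.25 CPM in erythroid-like cells. Among the named classes, its highest mean was in macrophage-like cells at E16.5 (76.7 CPM, 48.0 to 105 by library). At P3 it was in megakaryocyte-like cells (37.5 CPM, 24.4 to 47.9 by library). The part of erythroid RNA in the Epor of these classes was not tested. Cells left without a class were not ranked for any listed gene, and their Epor level is not given here. Tek and Tie1, the angiopoietin receptor and its partner, averaged 119 and 121 CPM in endothelial-like cells at E16.5 and 143 and 139 CPM at P3. Of the reported Ptn receptors, Sdc3 was highest in macrophage-like cells (264 and 549 CPM) and Nrp1 in endothelial-like cells (153 and 320 CPM). Ptprz1 had a highest class mean of 0.665 CPM at E16.5 and was highest in mesenchymal-like cells at P3 (9.18 CPM, 27 UMIs).

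**Figure D5:**
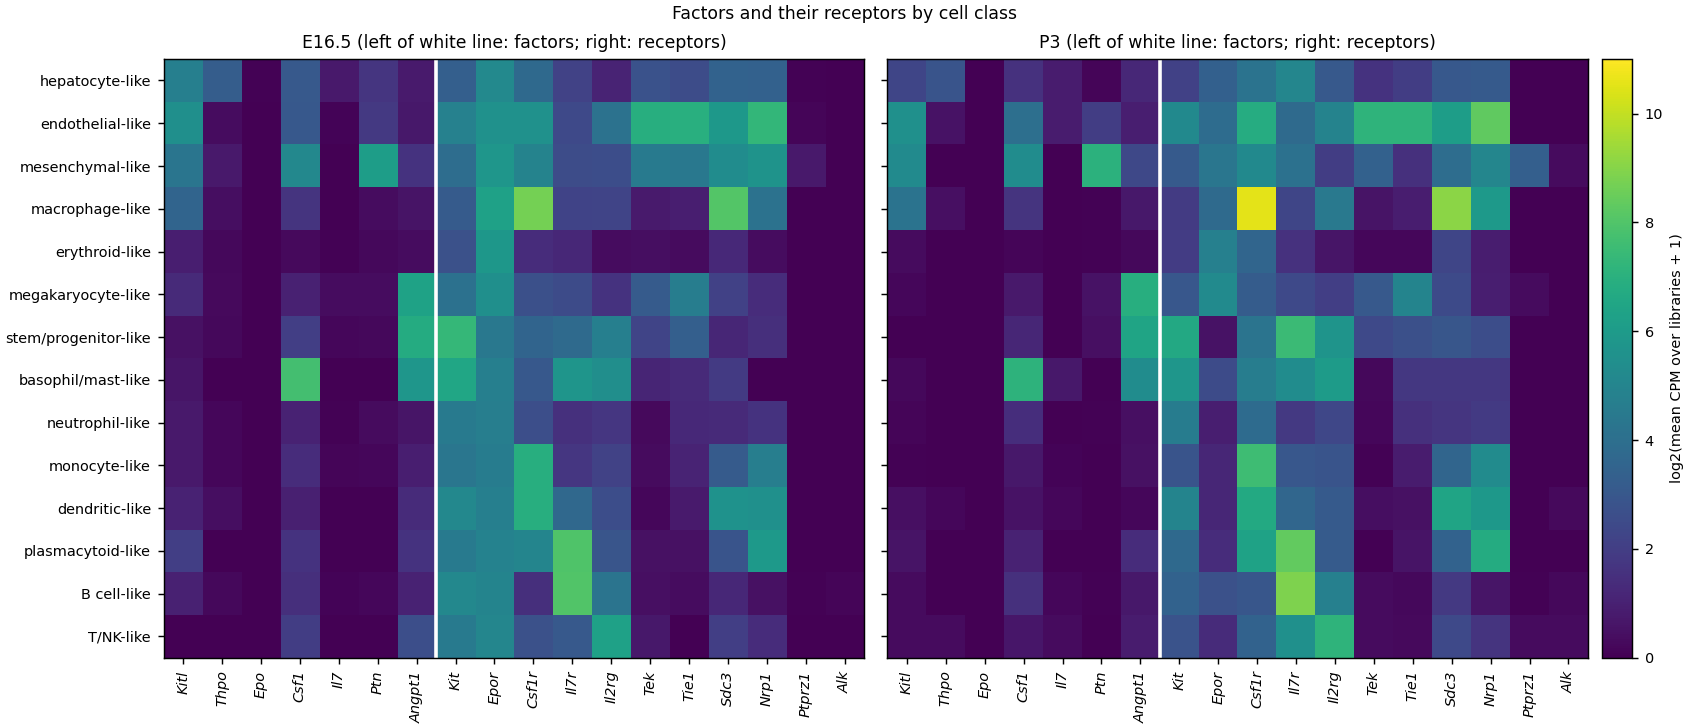
Colour gives log2(mean CPM over libraries + 1) of each factor (left of the white line) and of receptors (right of it) by cell class, at E16.5 and at P3. At E16.5 Csf1 peaks in basophil/mast-like cells and Csf1r in macrophage-like cells (413 CPM), and Angpt1 in stem/progenitor-like cells and Tek in endothelial-like cells (119 CPM).

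Between the stages, 28 of 98 receptor pairs rose and 28 fell, 57.1% against 40.8% of all pairs, with a median log2 change of 0.10 (edgeR calls). Of the 12 receptor genes 10 were tested. Csf1r rose in 9 of 13 classes (macrophage-like 1.41, edgeR adjusted p = 8.1e-06), Il2rg in 7 of 11 and Il7r in 6 of 13 (B-like 0.67, stem/progenitor-like 3.19). Kit fell in 9 of 13 classes (stem/progenitor-like -0.95, edgeR adjusted p = 0.0015) and Epor in 12 of 13 (erythroid-like -1.45). Erythroid RNA in other classes also fell. In macrophage-like cells the median erythroid marker share was 26.2% to 43.7% by library at E16.5 and 0.406% to 0.917% at P3. Its part in the falls of Kit and Epor outside erythroid-like cells was not tested, so their classes are not separate results. The stem/progenitor-like cells differed in make-up between the stages: 112 of the 219 at P3 were in the sub-cluster led by the T cell genes Trbc2 and Tcf7, and neither E16.5 sub-cluster was led by these genes. The part of this in the changes of Kit and Il7r in that class was not tested. The make-up of the B-like class may differ too. A P3 cluster led by Igkc, Ms4a1 and Iglc1 (4181 barcodes) got no class, since its B and dendritic markers tied. Other clusters led by Igkc were B-like, with 4010 barcodes at E16.5 and 2364 at P3. The part of this in the B-like levels and change of Il7r was not tested. Nrp1 rose in 3 classes and fell in 1, Sdc3 rose in 2 and fell in 1, Tek fell in 3 and Tie1 in 1. Tek and Tie1 did not pass in endothelial-like cells. Between the genotypes edgeR called 0 of 99 receptor pairs, with 5 at an unadjusted p under 0.05 (5.05%, beside 1.96% of all pairs) and a median log2 difference of 0.07.

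The genes most like each factor over the 70 class and library sums at E16.5 were named by Pearson's r of log2(CPM + 1) among 12410 genes, as a description, since the sums of a library share its depth and its erythroid RNA. Kitl was most like Gprc5c (0.906), Stab1 (0.904) and Epn2 (0.894), all highest in endothelial-like cells. Thpo was most like Ahsg (0.938), Alb (0.937) and Afp (0.937), secreted proteins of hepatocytes. Csf1 was most like Spin4 (0.843), Hgf (0.826) and Gpc4 (0.802), all highest in basophil/mast-like cells. Ptn was most like Afap1l2 (0.964), Tnxb (0.964) and Adamts2 (0.954), the last 2 genes of the extracellular matrix. Angpt1 was most like Muc13 (0.905), and Gm15657 (0.895) was also among its leading genes. Epo and Il7 were too low to be compared.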

How the data were processed

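The authors deposited 12 matrices of UMI counts per gene and cell barcode from 10x Chromium libraries of dissociated liver. Livers were digested with LDM, with TrypLE added at E16.5, filtered, and cleared of dead cells, per the labels' protocols. The submitters' processing notes name Cell Ranger 2.1.1 and mm10, while the matrix headers give software version 3.0.2 at P3 and 3.1.0 at E16.5. Whether counting used strand is not given in the sources used here.

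The deposited counts were filtered (at least 1000 UMIs, at most 15% mitochondrial UMIs), doublets were marked with Scrublet (3.65% to 41.5% of barcodes, highest in Jag1Ndr/+ replicate 1 at E16.5) and cells were clustered with scanpy 1.11.5 and leidenalg 0.10.2 (2000 variable genes, 30 components, 15 neighbours, resolution 1). Clusters with over 50% doublets were removed. Classes were named by marker genes, with the naming rule adjusted after the leading genes were seen and before comparisons. Counts summed per library and class (at least 10 cells in each library, 14 classes) were tested with edgeR 4.0.16 (R 4.3.3) quasi-likelihood F-tests, TMM and filterByExpr, adjusted by Benjamini-Hochberg over all pairs of class and gene at 0.05. DESeq2 1.42.0 was an alternative. The edgeR steps were tested on simulated counts of hepatocyte-like, endothelial-like and mesenchymal-like cells. In the genotype design they found 26% to 28% of 2-fold and 92% to 95% of 4-fold changes, among well-counted genes. The simulated spread was set rather than taken from these libraries, and the adjustment was within a class. Intervals are exact Poisson at 95%, limits for a count of 0 use 3 UMIs, and both cover counting error only. Libraries deposited under several labels were counted once. An insulin-expressing P3 sub-cluster was set aside from the mesenchymal-like class.

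The factors and gene lists were chosen with earlier results of these data known. Named genes are the factors, the listed genes past the threshold, the 5 listed genes with the highest level per list at E16.5 and the 3 genes most like each factor. Some of these genes are counted in their lists but are not reported here. Alternatives covered normalisation, filters, doublets, depth, erythroid RNA, the replicate number as a block and each library left out.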

Additional observations from a re-analysis of the deposited data

Results flagged for a closer look

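Of 51 groups of 4 or 5 libraries tested by Dixon's ratio, 1 had a value that stood apart. Angpt1 in basophil/mast-like cells at E16.5 was 33.1 CPM in Jag1Ndr/Ndr replicate 2 (22 UMIs in 39 cells), while the other 4 libraries lay between 58.6 and 59.8 CPM. The gap to the nearest library was 0.955 of the whole range, above the critical value of the ratio. Chance marks about 1 in 20 such groups.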

How the results depend on the processing

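Of 34 recomputed counts of calls 24 stayed within 1.5 times the reported count, and of 168 recomputed class levels 151 moved by less than the SD. Of 245 recomputed stage changes of the factors 219 kept their direction and their side of the threshold, 20 lost the call, 2 gained one and 4 reversed. Of 134 recomputed genotype differences 123 were unchanged in both respects, 10 reversed and 1 gained a call. The genotype count of 2 became 21 with DESeq2, 568 with no filter on low counts, 5 with the replicate block, and 0 with cells under 5% erythroid marker UMIs, where 3 classes were left (521 pairs at an unadjusted p under 0.05). Leaving out 1 library gave 4 to 154 (42 without Jag1Ndr/Ndr replicate 1, 154 without replicate 2, 21 without Jag1+/+ replicate 1, 4 without either of the others). With either Jag1Ndr/Ndr library left out, the remaining one is assumed to vary like the other 3. The stage count became 14047 in those 3 classes and 50275 with the replicate block. Deviations of same-numbered libraries correlated at a median r of 0.154 (-0.244 to 0.548) over 28 comparisons, 24 of them positive and 19 above 0.1. Since not all passed 0.1 and no label says what a number stands for, the numbers were not taken to pair the samples. Left-out libraries reversed the genotype difference of Kitl in hepatocyte-like (-1.07 to 0.26) and mesenchymal-like cells (-0.14 to 0.34), Ptn in mesenchymal-like cells (-0.81 to 0.26), and Angpt1 in stem/progenitor-like (-0.00618 to 0.22) and megakaryocyte-like cells (-0.21 to 0.16). They reversed the stage change of Kitl in endothelial-like cells (-0.45 to 0.0208), and of Csf1 (-0.41 to 0.0693) and Ptn (-0.0708 to 0.73) in mesenchymal-like cells. Other values moved without reversing. Between genotypes Angpt1 in basophil/mast-like cells ranged from -0.78 to -0.0503 and Csf1 in mesenchymal-like cells from 0.17 to 0.82. Between stages Thpo in hepatocyte-like cells ranged from -0.49 to -0.17. Thpo in hepatocyte-like cells reversed to 0.16 between genotypes under 5% erythroid UMIs, and to 0.0928 between stages in the deeper clusters.

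Under 5% erythroid UMIs the E16.5 levels were 39.9 CPM for Kitl and 12.3 for Thpo in hepatocyte-like cells. The P3 levels were 60.6 for Kitl in endothelial-like cells, 6.14 for Kitl and 10.4 for Thpo in hepatocyte-like cells, 64.4 for Kitl, 72.9 for Csf1 and 238 for Ptn in mesenchymal-like cells, and 134 for Angpt1 in megakaryocyte-like cells. With erythroid genes left out of the total, E16.5 levels were 31.7 for Kitl, 57.1 for Csf1 and 117 for Ptn in mesenchymal-like cells, 10.3 for Thpo and 120.2 for Angpt1 in stem/progenitor-like cells. In the deeper hepatocyte-like clusters Thpo was 11.6 at E16.5 and 11.9 at P3, and Kitl 7.82 at P3. A minimum of 2000 UMIs removed no E16.5 cell and tested nothing there. The causes were not tested, except that fewer cells, classes or libraries enter the settings that drop them. Depth limits Epo and Il7, which rest on few UMIs.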

Other observations

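Other factors of the hematopoietic niche were measured in the same classes, from a list of 25. At E16.5 the highest levels included those of Dlk1, a fetal regulator of differentiation, in hepatocyte-like cells (943 CPM), the adhesion molecule Vcam1 in macrophage-like cells (814 CPM), Il6 in basophil/mast-like cells (624 CPM) and Igf1 in macrophage-like cells (275 CPM). Of 100 pairs of class and gene tested between the stages, 24 rose and 34 fell by the edgeR test (58.0%, beside 40.8% of all pairs), with a median log2 change of -0.47. Dlk1 fell in 8 classes (hepatocyte-like -7.07), Igf2 in 5 (hepatocyte-like -1.83), Vcam1 in 4 (hepatocyte-like -2.40) and Angpt2 in 3. Il6 fell in 2 classes (basophil/mast-like -3.05), and Jag1 itself in 2 (mesenchymal-like -2.35). Tgfb1 rose in 14 of 14 classes and Flt3l, the ligand of FLT3 on progenitors, in 4. Igf1 rose in 2 classes (hepatocyte-like 2.36) and fell in dendritic-like cells (-1.86). Cxcl12, the chemokine that holds stem cells in the niche, rose in endothelial-like cells (2.32) and fell in erythroid-like (-1.86) and neutrophil-like cells (-1.10). Angptl2 rose in mesenchymal-like cells (1.03), and Tslp in neutrophil-like cells (1.16). Hgf rose in endothelial-like cells (1.55) and fell in 2 classes (basophil/mast-like -0.72). Between the genotypes edgeR called 0 of 123 pairs, with 5 at an unadjusted p under 0.05 (4.07%, beside 1.96% of all pairs) and a median of 0.09.

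In a list of genes downstream of cytokine receptors through Stat5, 68 pairs were tested, from 6 genes repeated over classes. Of the pairs 35 fell and 9 rose (64.7% called by edgeR, beside 40.8% of all pairs, 20.3% higher and 20.6% lower), with a median of -0.61. As in the other lists, calls of the same gene in several classes are not independent. Socs3, Pim1 and Bcl2l1 made up most of the falls. Socs3, a feedback inhibitor of cytokine signalling, fell in 11 of 11 classes (hepatocyte-like -3.76), the kinase gene Pim1 in 11 and the survival gene Bcl2l1 in 10, with 1 rise. Bcl2l1 was highest in erythroid-like cells (159 CPM at E16.5), and the part of erythroid RNA in its falls was not tested. Cish fell in 3 classes. Socs2 rose in 4 classes (hepatocyte-like 3.57) and Socs1 in 4. Between the genotypes edgeR called 0 of 70 pairs, with 3 at an unadjusted p under 0.05 (4.29%, beside 1.96% of all pairs) and a median of -0.05, and 0 of 110 oxygen-sensing pairs, with 0 at that level and a median of -0.03.

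A P3 sub-cluster of 142 cells was led by Ins2, Ins1 and Iapp, hormone genes of the pancreatic islet, and 57.0% of its cells came from library A. It was kept out of the mesenchymal-like values.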
